A study of Caenorhabditis elegans with 36 samples.

Results

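The nuclear hormone receptor genes of Caenorhabditis elegans described here are those whose symbol is nhr- followed by a number, without nhr-23, nhr-25, nhr-49 and nhr-85. A gene was taken where a probe set carried that symbol and no other, and where a gene had several, the brightest on average over the 36 arrays stood for it. This gave 250 genes of 17118 measured, of which the RefSeq table of assembly WBcel235 lists 239 as protein-coding and 11 as pseudogenes. The same table holds 283 genes with nhr- symbols in all.

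Nuclear hormone receptors are transcription factors with a zinc-finger DNA-binding domain and, in most members, a ligand-binding domain that takes up small fat-soluble molecules. Nematodes carry many more of them than vertebrates or insects do, and most of the additional genes descend from a receptor related to vertebrate HNF4, a regulator of liver metabolism. In worms, studied members act in fat and propionate metabolism, in responses to diet, toxins and pathogens, and in development, while many others have no known role or ligand.

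Gene expression was measured on Affymetrix C. elegans Genome Arrays with total RNA of whole, synchronized L1 larvae, the first larval stage. The worms were starved, exposed to ultraviolet light (UV) or left untreated, in 4 strains each: daf-2, daf-2;daf-16, daf-16 and the wild type N2. The product of daf-2 is the insulin/IGF receptor, which restrains the FoxO transcription factor made from daf-16. Each of the 12 groups held 3 arrays, but starved daf-16 had 2 arrays and starved daf-2;daf-16 had 4. Per the labels, worms grew on NGM, were on food for 4 h before UV and were harvested 6 h after it; that text stands with every sample, the starved ones too. The sources used here give neither how starvation was carried out, nor the UV dose, nor the mutant alleles. Values are log2 signals as deposited, a difference of 1 being 2-fold, and a gene was called where the limma p, adjusted over 22548 probe sets, was under 0.05. Changes are log2 fold changes ± standard error, with n equal to the arrays of the groups. Levels are set beside each other only within a probe set. Nothing in the labels says that arrays of a group were separate cultures, so p-values measure the spread between these samples only.

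Across the series, 3 arrays stood apart from their groups: in daf-2;daf-16, starved replicate 4 and untreated replicate 1, and in daf-16, UV replicate 3. No numeric criterion is given here for this choice. UV replicate 1 of daf-2;daf-16, not among them, had a mean log2 difference of the receptors from the average array of -0.02. It was -0.13 on both other UV arrays of that strain. In the probe sets of the mutated genes, that of daf-16 averaged 8.72 in untreated daf-16 and 8.08 in untreated N2, and that of daf-2 averaged 5.11 in untreated daf-2 and 5.04 in untreated N2, so neither was low in its own mutant; a probe set outside a deleted part checks nothing. The score of 10 moulting genes, which peak once in each larval stage, is their mean log2 difference from the average array. It lay between -3.14 and -2.70 on the 12 starved arrays, between -1.87 and 2.31 on the 12 UV arrays and between 1.60 and 2.96 on the 12 untreated arrays. The yolk gene vit-2, an adult marker, averaged 3.25 in starved N2 and 3.20 in untreated N2, near the lowest value of the table, 2.63.

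Starvation raised most of the receptor genes in N2. Of the 250, 148 were called higher and 17 lower, which is 59.2% and 6.8% of them. Among all 17118 genes 28.9% were higher and 25% lower, 53.8% in either direction. At least 2-fold changes were 51 rises and 2 falls, and the median log2 fold change was 0.46 for the receptors against -0.03 for all genes. No share of all genes at 2-fold is given here. Of the 165 called genes, 160 had starved arrays that did not overlap the untreated ones, and 134 lay among the 168 receptor genes outside the dimmest 33.3% of probe sets. Both counts are given for receptor genes only, so they do not show how receptors compare with all genes. The mean log2 difference of the receptors from the average array was 0.26 to 0.28 on the starved N2 arrays and -0.28 to -0.26 on the untreated ones.

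**Figure D1:**
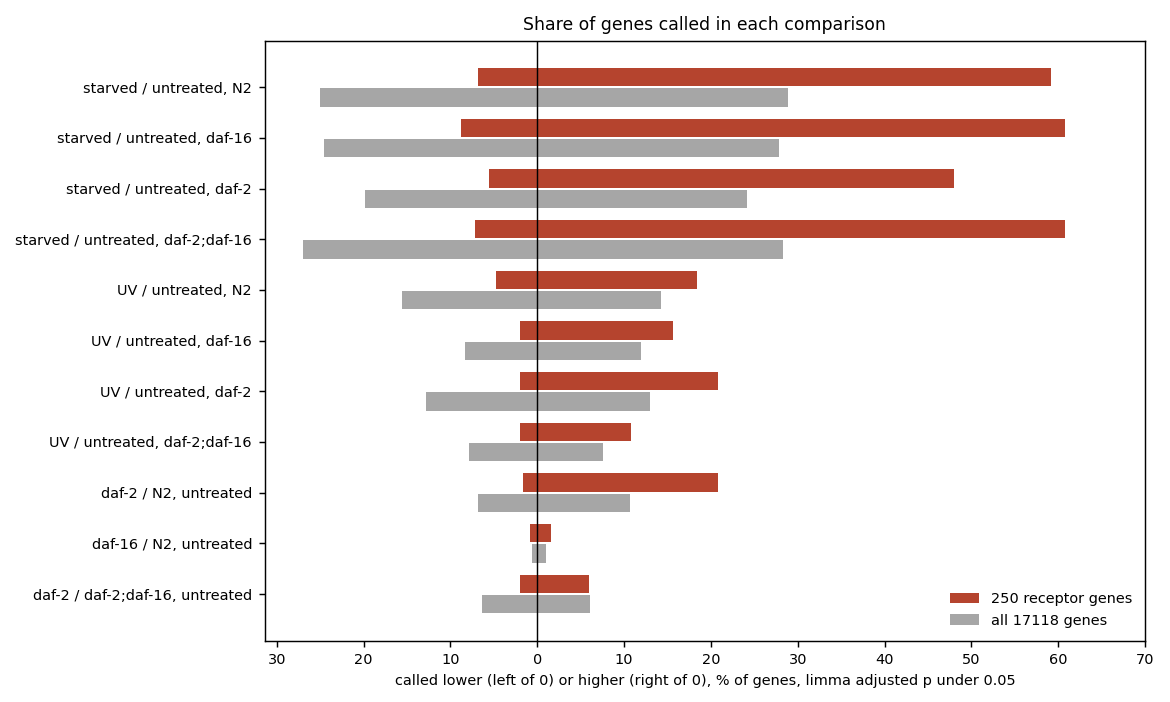
Share of the 250 receptor genes (red) and of all 17118 genes (grey) called higher, to the right of 0, or lower, to the left, in each of 11 comparisons, in percent of genes (limma, adjusted p under 0.05). In the starvation comparisons 48% to 60.8% of the receptor genes were called higher.

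Other measures moved with starvation as well, and their part in these results was not tested. All 10 moulting genes were called lower in starved N2, with scores of -3.05 to -2.95 on starved arrays and 2.73 to 2.89 on untreated arrays. The 4 neuron markers were all called higher, their mean difference from the average array being 0.80 to 0.93 when starved and -0.26 to -0.20 when untreated. Body wall muscle markers (3 of 3 higher) had means of 0.43 to 0.51 in starved and -0.17 to -0.05 in untreated N2. For intestine markers (2 higher, 1 lower of 3) these were 0.29 to 0.41 and -0.48 to -0.24, and the 2 germ line markers were both lower. In RNA of whole larvae, fewer cells of a type and less RNA per cell cannot be told apart. The Gapdh difference between 3′ and 5′ control probe sets, which reflects RNA integrity, was 0.33 to 0.62 in starved and 0.73 to 0.91 in untreated N2. The same difference for actin overlapped between the groups, at 0.55 to 0.83 in starved and 0.68 to 0.95 in untreated N2.

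The gene with the largest rise in N2 was nhr-206. Its log2 signal was 7.65, 8.06 and 7.94 on the starved N2 arrays, against 4.71, 4.24 and 4.40 on the untreated ones. The groups lay far apart, a 10.8-fold difference (3.43 ± 0.18, limma adjusted p = 2.7e-17). nhr-208, its neighbour on the chromosome, read 7.21, 7.29 and 7.33 starved and 4.28, 4.56 and 4.65 untreated (2.78 ± 0.16, adjusted p = 4.4e-16). nhr-21 had 10.15, 10.35 and 10.39 in starved N2 and 7.16, 7.08 and 7.01 in untreated N2 (3.21 ± 0.27, adjusted p = 3.7e-12), from a probe set shared between transcripts. In each of these genes every starved array exceeded every untreated one by more than 2 log2 units.

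The other large rises in N2 were those of nhr-213 (2.67 ± 0.19), nhr-18 (2.57 ± 0.16), nhr-101 (2.45 ± 0.21), nhr-88 (2.26 ± 0.15), nhr-7 (2.02 ± 0.15) and nhr-19 (1.99 ± 0.18), with adjusted p between 3.5e-11 and 1.1e-15. For nhr-88, 3 of its 4 probe sets were called higher and the other stood at -0.08. No role is given here for these genes.

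Of 9 receptors with a clear counterpart in vertebrates or insects, 4 rose in starved N2, 2 fell and 3 were not called, with a median of 0.29. Among all genes 28.9% rose and 25% fell. nhr-6, the worm NR4A receptor, which acts in the development of the spermatheca, had 8.78, 8.73 and 9.10 in starved N2, against 6.68, 6.53 and 6.04 in untreated N2. The starved arrays were all higher, by 5.47-fold (2.45 ± 0.20, limma adjusted p = 1.8e-12), in a shared probe set. nhr-64 and nhr-69, relatives of HNF4, rose by 1.14 ± 0.11 and 0.92 ± 0.09, and nhr-8, a relative of the vitamin D and pregnane X receptors that acts in cholesterol balance and xenobiotic resistance, by 0.69 ± 0.08. nhr-67, the tailless homologue, stood at 0.29 ± 0.13 (limma adjusted p = 0.055). With the replicate number as a block nhr-67 was called higher (0.29, adjusted p = 0.048), as it was without the intensity trend (0.049), with array weights (0.017), without dim probe sets (0.04), without the 3 arrays that stand apart (0.036), with only the N2 groups in the fit (0.044), and without replicate 1 of untreated N2 (0.04) or replicate 2 of starved N2 (0.039), the values in parentheses being adjusted p. Its relative nhr-111 stood at -0.20 ± 0.17 and nhr-48, a relative of nhr-8, at -0.02 ± 0.14. With array weights nhr-111 was called lower (-0.32).

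nhr-91, the homologue of vertebrate GCNF, showed the largest fall. Its log2 signal was 6.14, 5.72 and 6.05 in starved N2, against 8.23, 8.33 and 8.11 in untreated N2. All starved arrays were lower, by 4.77-fold (-2.25 ± 0.16, limma adjusted p = 4.3e-14). nhr-41, related to TR2 and TR4, read 4.57, 4.42 and 4.16 starved and 4.96, 5.13 and 5.25 untreated, near the low end of the table's range, and was lower by 0.73 (-0.73 ± 0.15, adjusted p = 5.9e-05). Its other probe set stood at -0.23.

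Metabolic receptors (9 of 10 measured, nhr-62 not analysed here) gave 4 rises, 3 falls and a median of 0.24 in starved N2, beside 28.9% and 25% of all genes. Rises were those of nhr-10, an activator of the propionate shunt, by 1.14 ± 0.17, nhr-14, a receptor that limits iron uptake, by 0.69 ± 0.11, nhr-80, which with NHR-49 controls fatty acid desaturases, by 0.61 ± 0.11, and nhr-31, needed for the excretory canal, by 0.24 ± 0.08. nhr-31 lost its call without replicate 3 of untreated N2 (0.17) or replicate 2 of starved N2 (0.20). nhr-114, which lets worms grow on a diet poor in vitamin B12, had 8.22, 7.76 and 8.03 in starved N2, against 8.98, 8.84 and 8.88 in untreated N2. The groups did not overlap, and the fall was 1.86-fold (-0.90 ± 0.10, limma adjusted p = 3.4e-09). nhr-76, which acts in fat loss driven by serotonin, fell by 0.45 (-0.45 ± 0.10). nhr-68, the partner of nhr-10 in the propionate shunt, was lower by 0.42 (-0.42 ± 0.15, adjusted p = 0.017), and without replicates 2 or 3 of untreated N2 or replicate 1 of starved N2 it was not called (-0.39, -0.36 and -0.31). nhr-13 and nhr-66, both linked to lipid metabolism, were not called (0.18 ± 0.10 and 0.28 ± 0.19). nhr-66 was called higher with array weights (0.43) and without replicate 1 of starved N2 (0.51).

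Among 5 receptors of xenobiotic, immune and oxygen responses, 4 rose in starved N2 and none fell, with a median of 0.49. nhr-8 is given above, and nhr-45, which acts in xenobiotic responses, rose by 0.80 ± 0.11. nhr-57, a textbook target of the hypoxia factor HIF-1, rose by 0.49 ± 0.13, and nhr-176, a sensor of the drug thiabendazole, by 0.30 ± 0.11. The last was not called without replicate 3 of untreated N2 (0.27) or replicate 1 of starved N2 (0.21). nhr-86, which senses a bacterial metabolite, stood at 0.01 ± 0.11. In the developmental list of 6, nhr-6 and nhr-40, which acts in muscle development, rose (nhr-40 by 0.94 ± 0.12), while nhr-91 and nhr-2, a receptor of the early embryo, fell. Beside both lists stand 28.9% of all genes that rose and 25% that fell. nhr-2 was lower by 0.23 (-0.23 ± 0.09, limma adjusted p = 0.03) and lost its call under quantile normalization (-0.18), with the mean of its probe sets (-0.17), without shared probe sets (-0.22) and with only the N2 groups in the fit (-0.23). It also did so without replicate 2 of untreated N2 (-0.16) or replicates 2 or 3 of starved N2 (-0.23 and -0.22). nhr-60, expressed in epidermal seam cells, stood at -0.15 ± 0.16.

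The other falls in starved N2 were smaller, apart from nhr-265, which read 4.53, 4.07 and 4.26 starved and 5.80, 5.60 and 5.72 untreated (-1.42 ± 0.18, limma adjusted p = 2.8e-08). Among these were nhr-150 (-0.71 ± 0.13), nhr-43 (-0.63 ± 0.16), nhr-148 (-0.57 ± 0.17) and nhr-198 (-0.36 ± 0.10). Only nhr-91 and nhr-265 of the 17 falls reached 2-fold.

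By the RefSeq table of WBcel235, 164 of the 250 receptor genes (65.6%) lie on chromosome V, which holds 25.3% of all genes measured. On chromosome V, 103 of the receptor genes rose and 9 fell in starved N2 (62.8% and 5.49%), against 29.6% and 17.4% of all genes measured there. On chromosome I, with 15 of the genes, 2 rose and 3 fell (13.3% and 20%, against 25.5% and 31.5% of all genes there), and 12 of the 15 were in the dimmest 33.3% of probe sets. Many receptor genes stand directly beside each other: 44 runs of adjacent nhr- genes took in 137 genes, 116 of them described here. The 9 runs of 5 or more genes were all on chromosome V, with 57 genes and 56 measured, of which 38 (67.9%) rose and 1 fell in starved N2, beside the 62.8% that rose among all the receptor genes of chromosome V.

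These runs differed among themselves. All 7 genes of the run with nhr-161, nhr-163, nhr-139, nhr-140, nhr-162, nhr-107 and nhr-42 rose, by 0.75 to 1.95. So did the 7 of the run that holds nhr-56 and nhr-18 and the 6 of the run of nhr-99, nhr-55, nhr-130, nhr-212, nhr-211 and nhr-106. The run of nhr-206 and nhr-208 gave 6 rises among 7. In the longest run, with nhr-185, nhr-186, nhr-188, nhr-189, nhr-187, nhr-157, nhr-158, nhr-159 and nhr-124, 2 of 9 rose, and in the run of nhr-51 and nhr-198 1 rose and 1 fell among 6. In these runs 2 probe sets are marked as shared between transcripts, and hybridization of neighbouring, similar genes to each other's probes was not tested.

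**Figure D2:**
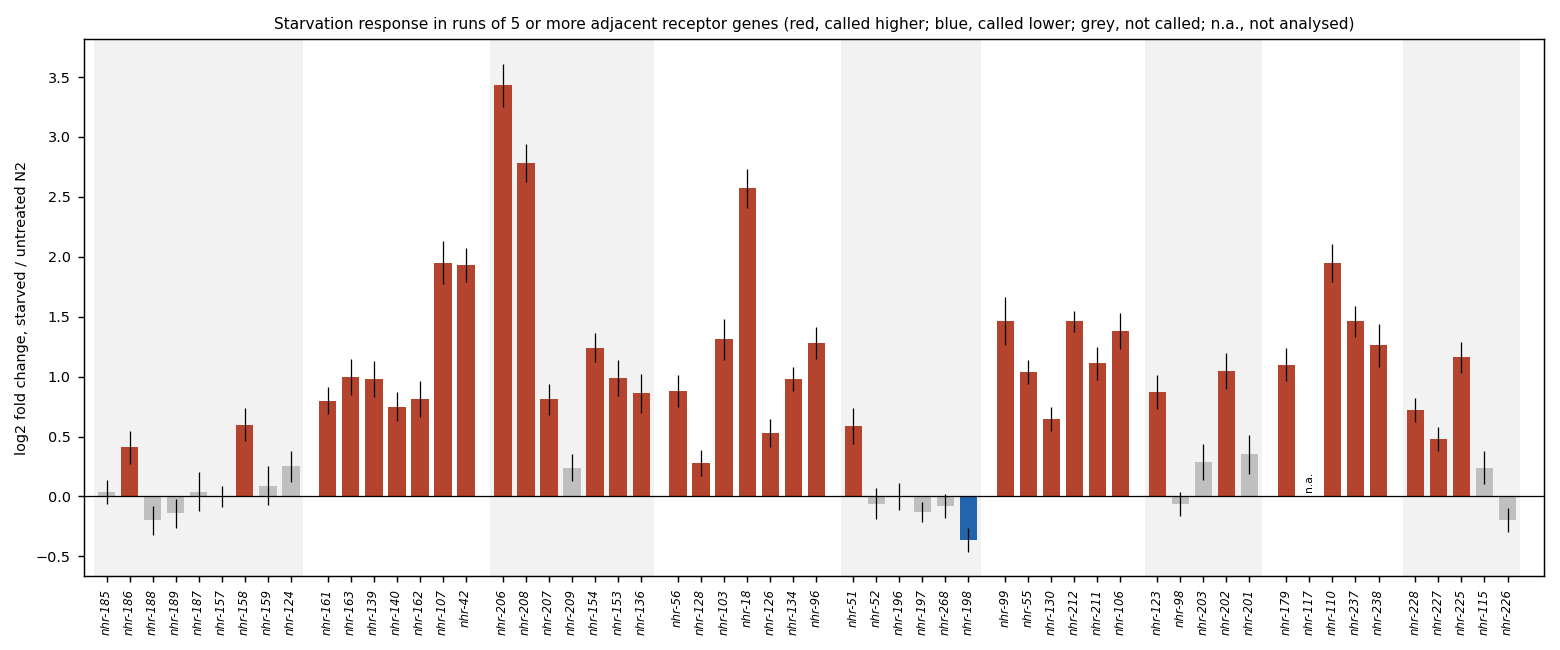
Log2 fold change of starved against untreated N2 for each gene in the 9 runs of 5 or more adjacent nhr- genes on chromosome V, in their order along the chromosome (bars, estimate; lines, standard error of the limma fit; shading separates runs; n.a., not analysed). Red bars are genes called higher, 38 in all, and 1 blue bar, nhr-198, is called lower.

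The rise in starvation was seen in the mutants too. In starved daf-2, 120 receptor genes were higher and 14 lower (48% and 5.6%, against 24.1% and 19.8% of all genes, 43.9% in either direction). In starved daf-2;daf-16 these were 152 and 18 (60.8% and 7.2%, against 28.3% and 27%, 55.3% in either direction), and in starved daf-16 152 and 22 (60.8% and 8.8%, against 27.8% and 24.6%, 52.4% in either direction). The median change of the receptors was 0.26 in daf-2, 0.47 in the double mutant and 0.54 in daf-16. Neuron markers were higher in 4 of 4 in each mutant, and moulting genes lower in 9 of 10 in daf-2 and 10 of 10 in daf-2;daf-16 and daf-16; their part was not tested. The 4 strains share no arrays here. In all 4 strains, 106 receptor genes (42.4%) were called higher, against 18.9% of all genes, and 6 (2.4%) were called lower, against 14.5%. The 6 are nhr-12, nhr-82, nhr-91, nhr-114, nhr-150 and nhr-265.

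nhr-206 rose in every strain, to 7.88, 7.73 and 7.63 in starved daf-2, against 4.80, 4.89 and 4.64 in untreated daf-2 (2.97 ± 0.18). In daf-2;daf-16 it read 8.29, 8.27, 8.34 and 8.57 starved and 4.94, 4.81 and 4.75 untreated (3.54 ± 0.17), and in daf-16 8.04 and 8.30 starved and 4.46, 4.78 and 3.96 untreated (3.77 ± 0.20). No starved array overlapped an untreated one. nhr-91 fell by 2.03 in daf-2 (-2.03 ± 0.16), by 2.09 in daf-2;daf-16 (-2.09 ± 0.15) and by 2.10 in daf-16 (-2.10 ± 0.18), with limma adjusted p of at most 4.9e-12. nhr-114 also fell in each mutant, by 0.47 in daf-2 (-0.47 ± 0.10), by 1.15 in daf-2;daf-16 (-1.15 ± 0.10) and by 1.16 in daf-16 (-1.16 ± 0.11). nhr-6 rose by 2.37 ± 0.20, 2.72 ± 0.19 and 2.61 ± 0.22 in these strains, in that order.

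The starvation response (the log2 fold change of starved against untreated) of daf-2 was tested against those of N2 and of the double mutant as an interaction in limma. A lower response in daf-2 means a smaller rise or a larger fall, and both occurred. Against N2, 43 receptor genes (17.2%) had a lower response in daf-2 and 4 (1.6%) a higher one, while 9.24% and 6.39% of all genes did. Against daf-2;daf-16, 53 (21.2%) were lower and 4 (1.6%) higher, while 8.05% and 5.65% of all genes were. The median difference was -0.19 in both, which share the daf-2 arrays. Untreated daf-2 and N2 arrays enter the first of them and also the untreated comparison below, so the 2 results are not independent. On these arrays the receptors' mean difference from the average array was -0.12 to -0.11 in daf-2 and -0.28 to -0.26 in N2. The count of 47 against N2 was 27 without replicate 1 of untreated daf-2 and 29 without replicate 3 of starved N2, and 85 with array weights. The moulting score of untreated daf-2, 1.61 to 1.74, lay below the 2.73 to 2.89 of untreated N2, and its part was not tested.

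nhr-7, read by a shared probe set, had a smaller rise in daf-2 than in N2. Starved daf-2 read 7.51, 7.34 and 7.49, against 7.06, 6.69 and 6.62 in untreated daf-2. Starved N2 read 7.68, 7.82 and 7.78, against 5.90, 5.83 and 5.47 in untreated N2. Starved levels of the strains lay within 0.5 of each other while the untreated ones did not overlap, and the response was lower in daf-2 by 1.37 (-1.37 ± 0.21, limma adjusted p = 2.3e-05). Against daf-2;daf-16, the largest differences after nhr-155 were those of nhr-193 (-1.40 ± 0.23, adjusted p = 4.6e-05) and nhr-21 (-1.34 ± 0.37, adjusted p = 0.014). nhr-21 was not called without replicate 2 of untreated daf-2;daf-16 (-1.14). nhr-114 fell less in daf-2 than in the double mutant (0.68 ± 0.14, adjusted p = 0.001), and nhr-68, which fell in daf-2;daf-16, stood at -0.04 in daf-2 (difference 0.70 ± 0.20, adjusted p = 0.018). The nhr-68 difference was not called without replicate 3 of untreated daf-2 (0.58) or replicate 1 of starved daf-2 (0.56).

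**Figure D3:**
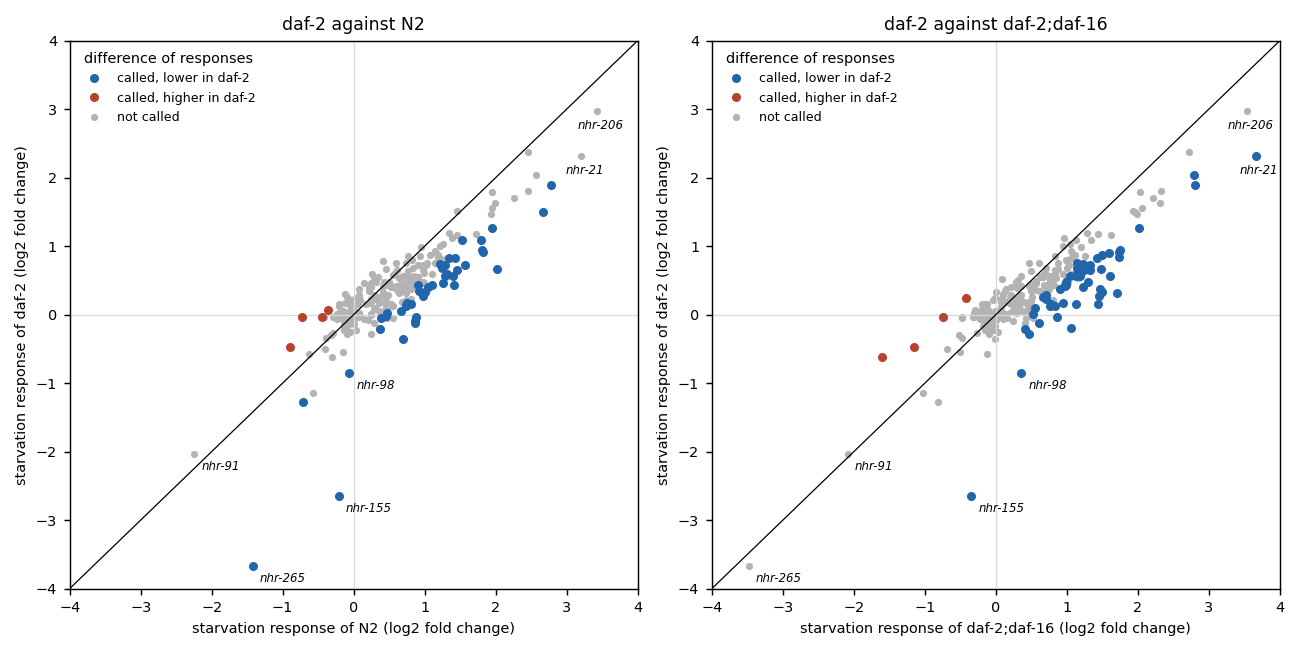
Starvation response of each of the 250 receptor genes in daf-2 (vertical axis, log2 fold change) against that in N2 (left) and in daf-2;daf-16 (right), with the line of equal response. Blue points, 43 on the left and 53 on the right, are genes whose response was called lower in daf-2 by limma, and red points, 4 in each panel, are those called higher.

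In daf-16, 6 receptor genes had a higher starvation response than in N2 and 1 a lower one (2.4% and 0.4%), against 1.44% and 1.8% of all genes (3.24% in either direction). nhr-260 had 8.23 and 8.32 in starved daf-16 and 6.60, 6.55 and 6.36 in untreated daf-16, while N2 read 7.54, 7.09 and 7.34 starved and 6.80, 6.90 and 6.77 untreated. Its rise was larger in daf-16 by 1.28 ± 0.23 (limma adjusted p = 0.00059). nhr-207 rose by 1.76 ± 0.15 in daf-16 and 0.81 ± 0.13 in N2 (difference 0.95 ± 0.20, adjusted p = 0.0038), and was not called without replicate 2 of starved daf-16 (0.76). The count of 7 was 2 without that array and 3 without replicate 2 of starved N2, 20 with array weights and 11 without the 3 arrays that stand apart.

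A few receptor genes, nhr-98, nhr-205 and nhr-58, were called in opposite directions under starvation in different strains. The share of all genes with such opposite calls was not computed, so these cases do not show how receptors compare with all genes. nhr-98 was at -0.85 in daf-2, 0.36 in daf-2;daf-16 and 0.58 in daf-16, all called, and at -0.06 in N2. The response of daf-2 was lower than that of N2 by 0.79 (-0.79, limma adjusted p = 2e-04) and lower than that of daf-2;daf-16 by 1.21 (-1.21, adjusted p = 1.7e-07). The other probe set of nhr-98 stood at -0.16 in daf-2, 0.13 in daf-2;daf-16 and 0.28 in daf-16. Its differences of daf-2 from N2 and from daf-2;daf-16 were -0.22 and -0.29, and none of these values was called. The opposite calls of nhr-98 thus rest on 1 of its probe sets. nhr-205 was called lower in daf-2 (-0.35) and higher in daf-16 and N2 (0.44 and 0.69), the difference of daf-2 from N2 being -1.04 (adjusted p = 2.4e-06). nhr-58 was called lower in daf-2;daf-16 (-0.42) and higher in daf-16 (0.41), a pair whose difference was not tested.

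After UV, fewer receptor genes changed, and most of those that did were higher. In N2, 46 rose and 12 fell (18.4% and 4.8%), against 14.2% and 15.6% of all genes (29.7% in either direction), with a median of 0.08 against 0.03. Rises of at least 2-fold numbered 5 and falls 1, again without a share of all genes at 2-fold. The UV and starvation comparisons of a strain share its untreated arrays, so each is given on its own. All 10 moulting genes were lower after UV in N2 (scores 0.56 to 1.13 after UV, 2.73 to 2.89 untreated), as were the 4 neuron markers (means -1.0 to -0.83 after UV, -0.26 to -0.20 untreated). The part of these shifts was not tested.

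nhr-155 rose most: it read 5.41, 5.41 and 5.77 in N2 after UV, against 4.02, 3.86 and 4.07 in untreated N2. The UV arrays were all higher, by 2.93-fold (1.55 ± 0.18, limma adjusted p = 5.7e-08). nhr-7 had 7.21, 7.08 and 7.03 after UV and 5.90, 5.83 and 5.47 untreated (1.37 ± 0.15, adjusted p = 1.2e-08). nhr-63 had 7.01, 6.63 and 6.66 after UV and 5.47, 5.55 and 5.54 untreated (1.25 ± 0.15, adjusted p = 4e-08). Neither gene's groups overlapped. The next rises were those of nhr-84 (1.13 ± 0.15), nhr-147 (1.04 ± 0.12), nhr-112 (0.92 ± 0.11), nhr-213 (0.90 ± 0.19), nhr-50 (0.79 ± 0.12) and nhr-102 (0.73 ± 0.14).

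Of the 9 conserved receptors, nhr-67 and nhr-64 rose and nhr-91 fell after UV in N2, beside 14.2% and 15.6% of all genes. nhr-67, which in worms acts in uterine and neuronal development, had 6.88, 7.18 and 7.19 after UV, against 6.42, 6.33 and 6.15 untreated. All UV arrays were higher (0.78 ± 0.13, limma adjusted p = 9.1e-06). nhr-64 was higher by 0.30 ± 0.11 (adjusted p = 0.038), and lost its call without replicates 1 or 2 of untreated N2 (0.30 and 0.26) or replicates 1 or 2 of N2 after UV (0.24 and 0.28), and with only the N2 groups in the fit (0.30). nhr-91 read 7.39, 7.22 and 7.53 after UV, below 8.23, 8.33 and 8.11 untreated (-0.84 ± 0.16, adjusted p = 8.4e-05). nhr-41 was called lower with quantile normalization (-0.37), with array weights (-0.34) and without replicate 3 of N2 after UV (-0.47), though not in the main fit. In the metabolic list nhr-31 rose by 0.35 ± 0.08, nhr-114 fell by 0.39 (-0.39 ± 0.10) and nhr-68 fell by 0.51 (-0.51 ± 0.15). nhr-68 was not called without replicate 3 of N2 after UV (-0.38), while nhr-10 and nhr-66 were called lower only without replicate 1 of N2 after UV (-0.45 and -0.51). Of the 5 xenobiotic, immune and oxygen receptors 0 were called by limma in this comparison and 1 had an unadjusted p under 0.05; nhr-86 was nearest, at 0.27 ± 0.11 (adjusted p = 0.067), and was called with quantile normalization (0.31), with array weights (0.34) and without the dimmest probe sets (0.27), as was nhr-45 (0.27) with the mean of its probe sets. nhr-40 fell by 0.64 (-0.64 ± 0.12).

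The largest fall after UV in N2 was that of the pseudogene nhr-144, with 6.77, 5.86 and 4.88 after UV and 7.06, 7.03 and 7.11 untreated (-1.23 ± 0.24, limma adjusted p = 0.00012). Its UV arrays were widely spread, and leaving out 1 array in turn moved the value between -1.70 and -0.76. Other falls included those of nhr-43 (-0.77 ± 0.16), nhr-161 (-0.72 ± 0.11), nhr-143 (-0.65 ± 0.16), nhr-15 (-0.60 ± 0.12), nhr-100 (-0.53 ± 0.11) and nhr-216 (-0.52 ± 0.13).

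In daf-2 after UV, 52 receptor genes rose and 5 fell (20.8% and 2%, against 13% and 12.8% of all genes, 25.8% in either direction). In daf-2;daf-16 these were 27 and 5 (10.8% and 2%, against 7.61% and 7.83%, 15.4% in either direction), and in daf-16 39 and 5 (15.6% and 2%, against 11.9% and 8.33%, 20.2% in either direction). The 44 calls of daf-16 became 29 without its UV replicate 3 and 24 with only its own arrays in the fit. The 32 calls of daf-2;daf-16 became 18 without its UV replicate 1 and 17 with only its own arrays. The 57 calls of daf-2 became 98 with array weights. Neuron markers were lower after UV in these strains too, 3 of 4 in daf-2 (means -0.59 to -0.53 after UV, -0.07 to 0.03 untreated), 3 of 4 in daf-2;daf-16 (-0.70 to -0.36 after UV, -0.15 to -0.08 untreated) and 1 of 4 in daf-16 (-0.86 to -0.39 after UV, -0.26 to -0.19 untreated). Of the 10 moulting genes 7 were lower in daf-16 (scores 0.93 to 2.31 after UV, 2.80 to 2.96 untreated). In daf-2;daf-16 limma called 0 of the 10, with 5 at an unadjusted p under 0.05 (scores 1.21 to 1.58 after UV, 1.60 to 2.54 untreated). The part of these shifts was not tested. In all 4 strains 18 receptor genes (7.2%) rose, against 4.46% of all genes, among them nhr-7, nhr-50, nhr-63, nhr-67, nhr-84, nhr-98, nhr-112, nhr-147, nhr-206, nhr-208 and nhr-213. nhr-91 alone fell in all 4 (0.4%, against 2.15% of all genes). The other probe set of nhr-98 was not called in N2, daf-2;daf-16 or daf-16, at 0.14, 0.16 and 0.13.

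In daf-2, UV raised nhr-63 by 1.34 ± 0.15, nhr-84 by 1.23 ± 0.15, nhr-147 by 1.20 ± 0.12, nhr-112 by 1.11 ± 0.11 and nhr-54 by 0.99 ± 0.16. nhr-112 read 6.74, 6.80 and 7.14 after UV and 5.87, 5.67 and 5.80 untreated, with no overlap. Among the xenobiotic, immune and oxygen receptors, nhr-8 (0.50 ± 0.08), nhr-86 (0.44 ± 0.11) and nhr-45 (0.37 ± 0.11) rose in daf-2. nhr-265 fell there by 5.59-fold, with 5.75, 5.50 and 5.12 after UV, against 7.98, 8.02 and 7.81 untreated (-2.48 ± 0.18, limma adjusted p = 9.6e-13). nhr-91 fell by 3.15-fold, with 6.37, 6.43 and 6.32 after UV, against 8.13, 8.0 and 7.95 untreated (-1.65 ± 0.16, adjusted p = 4.7e-10). The moulting score of daf-2 after UV, -1.87 to -0.94, was the lowest of the UV groups, and 9 of the 10 moulting genes were lower there; its part was not tested.

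In daf-2;daf-16, nhr-206 showed the largest rise after UV, with 6.40, 5.75 and 5.59 after UV and 4.94, 4.81 and 4.75 untreated (1.08 ± 0.18, limma adjusted p = 4.7e-05). In daf-16 it read 5.51, 5.39 and 5.43 after UV and 4.46, 4.78 and 3.96 untreated (1.04 ± 0.18, adjusted p = 6.1e-05), second to nhr-7 (1.26 ± 0.15). No UV array of nhr-206 overlapped an untreated one in either strain. nhr-63 rose by 0.93 ± 0.15 in daf-2;daf-16 and by 0.91 ± 0.15 in daf-16.

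Few UV responses differed between strains, among receptor genes as among all genes. The response of daf-2 differed from that of N2 in 12 genes, 6 higher and 6 lower (2.4% each, against 2.31% and 2.77% of all genes, 5.08% in either direction), and from that of daf-2;daf-16 in 8, 6 higher and 2 lower (2.4% and 0.8%, against 3.03% and 2.97%). In limma 40 and 26 receptor genes had an unadjusted p under 0.05 in these, and array weights gave 34 and 30 calls. The UV response of nhr-265 was lower in daf-2 by 2.66 against N2 (-2.66 ± 0.25, limma adjusted p = 5.1e-08) and by 1.95 against the double mutant (-1.95 ± 0.25, adjusted p = 2.8e-06). nhr-3, with a shared probe set, rose in daf-2 (10.28, 10.46 and 10.25 after UV, 9.50, 9.31 and 9.23 untreated) and not in daf-2;daf-16 (9.26, 9.24 and 9.31 after UV, 9.35, 9.38 and 9.42 untreated), a difference of 1.10 ± 0.18 (adjusted p = 9.2e-05). The count of 12 against N2 was 3 without replicate 3 of N2 after UV, 5 without replicate 3 of untreated N2 or of daf-2 after UV, 7 without replicate 2 of untreated N2, of N2 after UV or of daf-2 after UV or without replicate 3 of untreated daf-2, and 18 without replicate 1 of N2 after UV. Between daf-16 and N2, 4 UV responses differed, 3 higher and 1 lower (1.2% and 0.4%, against 1.12% and 0.794%, 1.91% in either direction); this count ran from 1 to 18 when single arrays were left out, 18 being without replicate 1 of N2 after UV and 10 without replicate 3 of daf-16 after UV, and was 0 with only those groups in the limma fit, where 35 had an unadjusted p under 0.05.

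Without treatment, receptor genes were more often higher than lower in daf-2. Against N2, 52 were higher and 4 lower (20.8% and 1.6%), while 10.7% and 6.82% of all genes were. The median was 0.10 for the receptors and -0.01 for all genes. The same untreated arrays enter the starvation and UV interactions of daf-2 against N2 above. nhr-155 read 6.77, 6.47 and 6.03 in daf-2, against 4.02, 3.86 and 4.07 in N2, without overlap and 5.44-fold higher (2.44 ± 0.18, limma adjusted p = 5.6e-12). nhr-265 read 7.98, 8.02 and 7.81 in daf-2, against 5.80, 5.60 and 5.72 in N2 (2.23 ± 0.18, adjusted p = 2.2e-11). No role is given here for either gene, and the nhr-155 probe set is in the dimmest 33.3% of the table.

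Further genes higher in untreated daf-2 than in N2 were nhr-205 (1.31 ± 0.10), nhr-7 (1.06 ± 0.15), nhr-98 (1.05 ± 0.10), nhr-213 (0.98 ± 0.19), nhr-44 (0.97 ± 0.14), nhr-123 (0.94 ± 0.14), nhr-150 (0.84 ± 0.13) and nhr-178 (0.84 ± 0.13). The other probe set of nhr-98 stood at 0.24 and was not called. nhr-121 was lower (-0.40 ± 0.10, limma adjusted p = 0.0025), with 4.84, 4.85 and 4.86 in daf-2 and 5.15, 5.34 and 5.25 in N2. By role, nhr-69 (0.37 ± 0.09), nhr-57 (0.49 ± 0.13) and nhr-60 (0.57 ± 0.16) were higher, nhr-41 was lower (-0.45 ± 0.15), and 0 of the 9 metabolic receptors were called by limma, 1 having an unadjusted p under 0.05, with nhr-76 being nearest (-0.23 ± 0.10, adjusted p = 0.11). The nhr-41 call was lost without replicates 2 or 3 of untreated N2 (-0.44 and -0.38) without replicate 1 of untreated daf-2 (-0.27) and with the mean of its probe sets (-0.26). nhr-76 was called lower with array weights (-0.26) and with the mean of its probe sets (-0.50). nhr-64 was called higher with array weights (0.32), and at 0.30 without dim probe sets, without the 3 arrays that stand apart and with only these groups in the fit. nhr-8 was called lower with quantile normalization (-0.22) and array weights (-0.15), and nhr-2 with array weights (-0.20). None of these was called in the main fit. The count of 56 was 91 with array weights. Moulting scores (1.61 to 1.74 in daf-2, 2.73 to 2.89 in N2, 7 of 10 genes lower) and the Gapdh difference (0.29 to 0.55 in daf-2, 0.73 to 0.91 in N2) also differed. So did the intestine markers, with 2 of 3 called higher and means of 0.04 to 0.09 in daf-2, against -0.48 to -0.24 in N2. The actin difference between 3′ and 5′ control probe sets overlapped, at 0.63 to 0.79 in daf-2 and 0.68 to 0.95 in N2. The part of the shifts in these measures was not tested.

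Against daf-2;daf-16, which differs from daf-2 by the daf-16 mutation, 15 receptor genes were higher in untreated daf-2 and 5 lower (6% and 2%, against 6.13% and 6.35% of all genes). The share called higher was thus near that of all genes. nhr-155 read 6.77, 6.47 and 6.03 in daf-2, against 3.59, 4.43 and 4.12 in daf-2;daf-16 (2.38 ± 0.18, limma adjusted p = 1e-11). nhr-98 read 7.78, 7.92 and 7.59 in daf-2, against 6.27, 6.19 and 6.22 in daf-2;daf-16 (1.54 ± 0.10, adjusted p = 3.5e-13). nhr-201, in the same run of adjacent genes as nhr-98, read 6.40, 6.43 and 6.38 in daf-2, against 5.49, 5.26 and 4.92 in daf-2;daf-16 (1.18 ± 0.16, adjusted p = 1.4e-06). No daf-2 array of these genes overlapped a daf-2;daf-16 array. nhr-11 (0.90 ± 0.13), nhr-136 (0.67 ± 0.16), nhr-205 (0.65 ± 0.10), nhr-202 (0.61 ± 0.15), nhr-112 (0.59 ± 0.11), nhr-34 (0.54 ± 0.12) and nhr-4 (0.52 ± 0.09) followed. nhr-121 was lower (-0.36 ± 0.10, limma adjusted p = 0.009), but was not called with only these groups in the limma fit (adjusted p = 0.052). nhr-8 was called lower (-0.32 ± 0.08), but it either lost its call without some single array or had groups that overlapped. nhr-265, by contrast, stood at 0.25 ± 0.18 (adjusted p = 0.51), with 7.98, 8.02 and 7.81 in daf-2, against 7.45, 7.70 and 7.92 in daf-2;daf-16. This comparison shares its daf-2 arrays with the one against N2. The count of 20 was 57 with array weights. Muscle markers, 2 of 3 called higher, had means of -0.08 to 0.05 in daf-2, against -0.45 to -0.19 in daf-2;daf-16, and 1 of 3 intestine markers was higher; their part was not tested.

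Untreated daf-16 differed from N2 in 6 receptor genes, 4 higher and 2 lower (1.6% and 0.8%, against 0.952% and 0.631% of all genes), 43 having an unadjusted p under 0.05. nhr-265 was higher in daf-16, with 6.67, 6.81 and 7.02, against 5.80, 5.60 and 5.72 in N2 (1.13 ± 0.18, limma adjusted p = 0.0002). nhr-98 was lower, with 6.06, 6.21 and 5.78 in daf-16, against 6.70, 6.72 and 6.72 in N2 (-0.70 ± 0.10, adjusted p = 6.7e-05). Neither gene's groups overlapped. The other probe set of nhr-98 stood at -0.27 and was not called. nhr-8 was higher by 0.33 ± 0.08 (limma adjusted p = 0.026), but only nhr-265 and nhr-98 kept their calls whichever array was left out. The count of 6 was 2 without replicate 1 of untreated daf-16, 3 without replicate 1 of untreated N2, 14 with array weights and 10 without the 3 arrays that stand apart, and with quantile normalization the split was 3 higher and 4 lower.

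**Figure D4:**
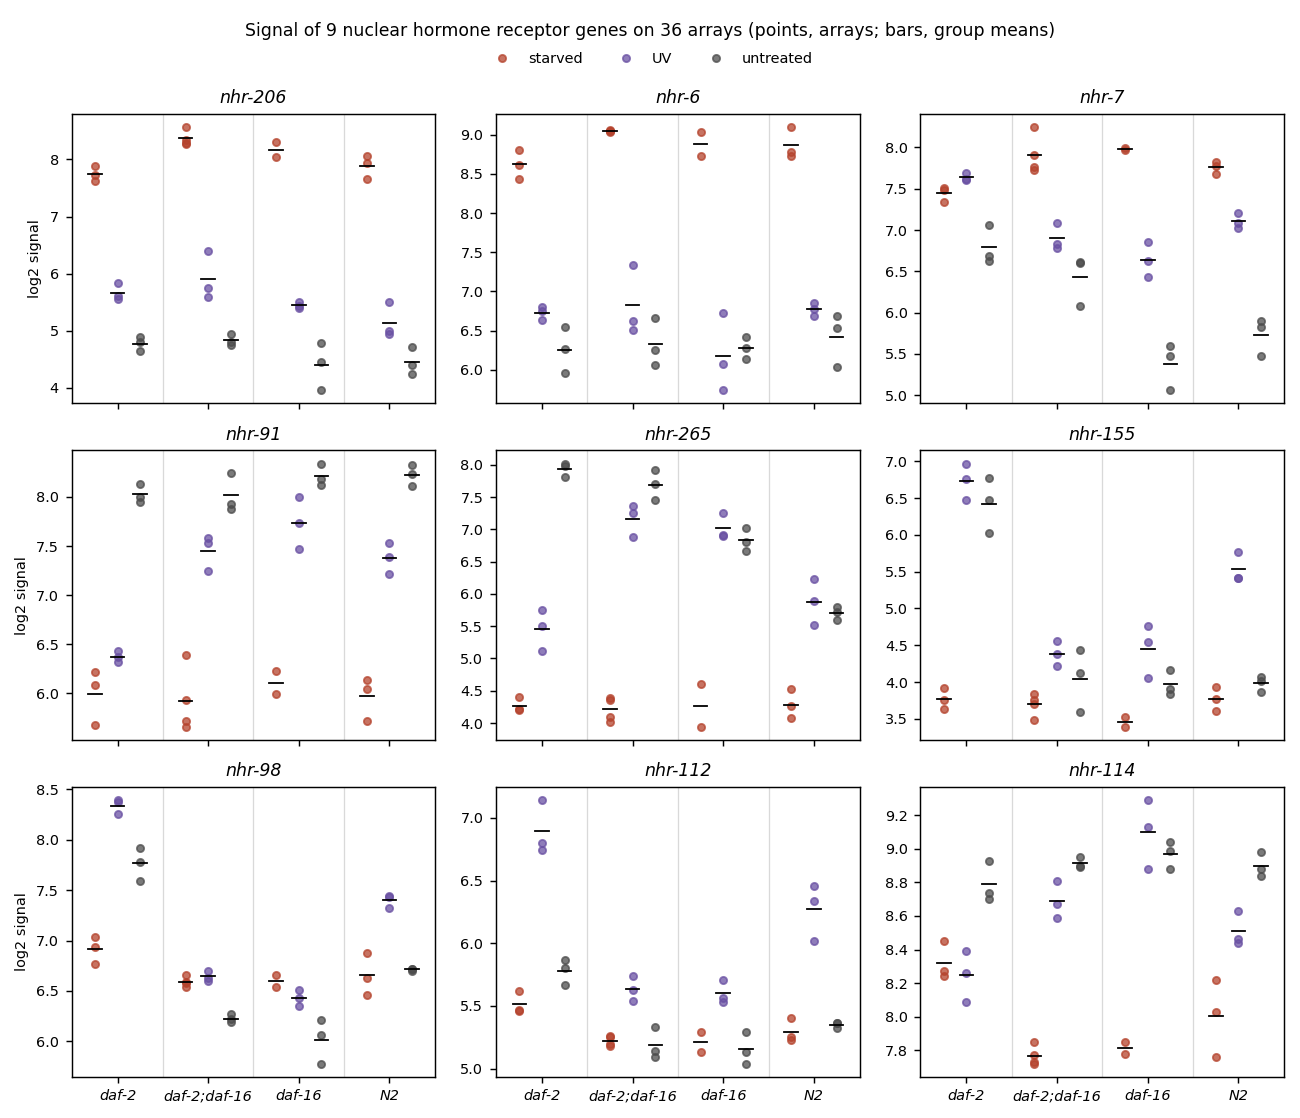
Log2 signal of 9 receptor genes on every array (points), with group means (bars), by strain and, within strain, starved, UV and untreated from left to right. nhr-206 and nhr-6 were high on all 12 starved arrays, nhr-91 and nhr-265 were low on them, and nhr-155 was high in untreated and UV-exposed daf-2.

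Over the 12 groups, nhr-155, nhr-98 and nhr-265 combined strain and treatment in different ways. nhr-155 was high in daf-2 both after UV (6.47, 6.97 and 6.76) and untreated, but read 3.76, 3.63 and 3.92 in starved daf-2. Its starvation response was therefore -2.65 ± 0.18 in daf-2, against -0.35 ± 0.17 in daf-2;daf-16 and -0.21 ± 0.18 in N2, and lower in daf-2 than in either (-2.31 ± 0.25 and -2.44 ± 0.26, limma adjusted p = 5.7e-08 and 4.6e-08). nhr-98 was highest in daf-2 after UV (8.25, 8.37 and 8.39) and lowest in untreated daf-16. nhr-265 fell to 4.21, 4.40 and 4.20 in starved daf-2 and to 4.02, 4.39, 4.09 and 4.36 in starved daf-2;daf-16, so that starved arrays of all 4 strains lay between 3.94 and 4.60 while untreated groups differed. Its starvation response was -3.67 ± 0.18 in daf-2, -3.48 ± 0.17 in daf-2;daf-16, -2.56 ± 0.20 in daf-16 and -1.42 ± 0.18 in N2, and the difference of daf-2 from N2 was -2.25 ± 0.25 (adjusted p = 1.3e-07). nhr-235 read 4.88, 6.41 and 6.37 in untreated daf-2;daf-16, the low value being that of the array that stands apart, and between 4.20 and 5.36 on all arrays of the other strains.

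**Figure D5:**
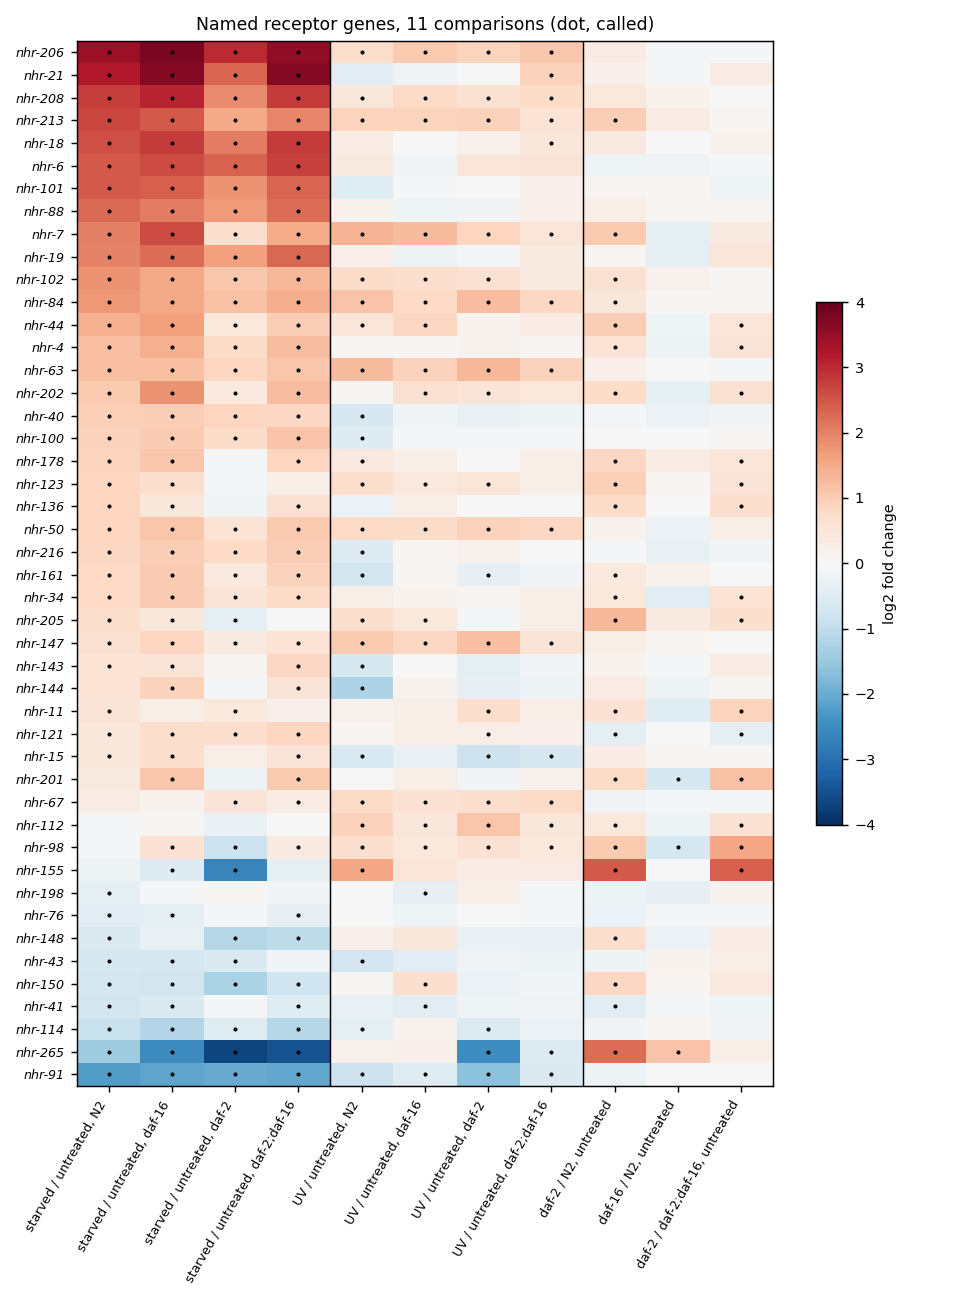
Log2 fold changes (colour) of the receptor genes named for untreated daf-2 or for starvation or UV in N2, in 11 comparisons, ordered by their starvation response in N2; dots mark calls by limma. Red for starvation at the top runs through all 4 strains, and nhr-265 and nhr-91 at the bottom are blue for starvation in each.

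The receptor genes differed widely in how much they varied. The range over the 36 arrays had a median of 1.27 and exceeded 2 in 48 genes. In at least 1 of the 11 comparisons between 2 groups 211 genes were called, and 39 were called in none. Of these 39, 31 were in the dimmest 33.3% of probe sets. The counts of ranges and of calls are for receptor genes only, so they do not show how receptors compare with all genes. In all 82 of the 250 were that dim (32.8%), as were 33.1% of all genes. Of the genes, 25 were read by probe sets marked as shared between transcripts and 30 by more than 1 probe set, and no gene had probe sets called in opposite directions in any comparison.

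Other nuclear receptors, cofactors and enzymes of steroid ligands gave 4 rises and 6 falls among 17 in starved N2, with a median of -0.15, beside 28.9% and 25% of all genes. nhr-49, a regulator of fat metabolism, rose by 0.81 ± 0.12, its coactivator gene mdt-15 by 1.02 ± 0.11, the coactivator gene cbp-1 by 0.70 ± 0.13 and nhr-25, which acts in moulting and epidermal development, by 0.73 ± 0.14. nhr-23, which drives moulting, fell by 3.42 (-3.42 ± 0.12, limma adjusted p = 1.9e-21). dhs-16 and daf-36, enzymes of the synthesis of dafachronic acid, the ligand of DAF-12, fell by 3.63 (-3.63 ± 0.23) and by 1.85 (-1.85 ± 0.15), strm-1, a sterol methyltransferase gene, by 2.32 (-2.32 ± 0.18), daf-12 by 0.43 (-0.43 ± 0.08) and sex-1 by 0.29 (-0.29 ± 0.11). After UV in N2, 3 of the 17 rose and 3 fell, with dhs-16 at -1.73 ± 0.23, strm-1 at -1.53 ± 0.18 and daf-12 at -0.37 ± 0.08. The largest increases in mean signal among the 17 were those of nhr-25 (8.87 untreated, 9.47 after UV), mdt-15 (7.91 and 8.33) and din-1 (5.56 and 5.89). In untreated daf-2 against N2, nhr-23 (0.61 ± 0.12) and daf-36 (0.62 ± 0.15) were higher, and sex-1 (-0.55 ± 0.11) and daf-12 (-0.34 ± 0.08) lower.

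Among 11 textbook targets of these receptors, 4 rose and 5 fell in starved N2, beside 28.9% and 25% of all genes. acs-2, a fatty acid activation gene driven by NHR-49, rose by 6.03 ± 0.50, and the desaturase genes fat-5 and fat-6 by 3.35 ± 0.19 and 0.97 ± 0.08, while fat-7 fell by 1.61 (-1.61 ± 0.23). The propionate shunt genes acdh-1 and hphd-1 fell by 0.92 (-0.92 ± 0.13) and 1.28 (-1.28 ± 0.11), beside a rise of nhr-10 and a fall of nhr-68. The iron transporter gene smf-3 rose by 1.18 ± 0.12 and the ferritin gene ftn-2 fell by 0.95 (-0.95 ± 0.07), and sams-1, of methionine metabolism, fell by 1.13 (-1.13 ± 0.06). After UV in N2, 2 of the 11 rose and 5 fell, among them fat-5 (1.30 ± 0.19), hphd-1 (-0.97 ± 0.11) and the ferritin gene ftn-1 (-1.11 ± 0.17). In untreated daf-2 against N2, fat-5 (1.23 ± 0.19) and ftn-1 (1.33 ± 0.17) were higher, and fat-7 (-1.92 ± 0.23) and hphd-1 (-0.32 ± 0.11) lower.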

How the data were processed

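Per the submitters' processing notes, Affymetrix Power Tools was used for summarization; no version or algorithm is named. Deposited values lie between 2.63 and 14.9; that the authors' values are log2 was read from this range, and how they were normalized between arrays is not given in the sources used here. RNA was extracted with Trizol and labelled with biotin, per the labels. The 77 control probe sets were left out and 22548 tested. Of these, 20766 carry 1 symbol, 887 several and 895 none in the platform annotation, with symbols updated through the RefSeq table of WBcel235; all 250 receptor genes matched it.

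One limma 3.58.1 fit (R 4.3.3) held a mean for each of 12 groups, 24 residual degrees of freedom and variances moderated along an intensity trend; it gave 11 comparisons and 6 interactions, with Benjamini-Hochberg adjustment over all probe sets of each. The number of arrays limits precision. Named genes are the largest called changes in each direction: 10 for starvation and UV in N2 and for untreated daf-2 against each reference strain, 5 for the other comparisons. They had to be called whichever array was left out, with groups that do not overlap. The rule also names the 3 largest called interactions of each direction with a stable sign, and the lists by role. nhr-58, nhr-205 and nhr-98 as opposite calls, nhr-3 for its levels, and genes named only as members of a run or of the calls in all 4 strains, were added after their values were seen. The members and lists were chosen with earlier results of these data known. Same-numbered arrays were checked for pairing: correlations of their deviations ran from -0.21 to 0.43 over 32 pairs, and in 0 of 11 comparisons were all above 0.1. No arrays held identical values. The code was tested on simulated data. Alternatives were quantile normalization, no intensity trend, array weights, the replicate number as a block, only the groups compared, the mean of a gene's probe sets, no dim or shared probe sets, and leaving out arrays.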

Additional observations from a re-analysis of the deposited data

Results flagged for a closer look

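Among 4 arrays of starved daf-2;daf-16, the only group large enough, 5 of 74 named genes (6.76%) had 1 array far from the others, where chance gives about 1 in 20. Replicate 4, an array that stands apart from its group, was that array for nhr-143 (6.58, others 6.28 to 6.32), nhr-260 (8.61, others 7.77 to 7.91), nhr-31 (9.40, others 9.50 to 9.52) and nhr-67 (6.71, others 6.48 to 6.49). For nhr-76 it was replicate 2 (5.38, others 5.31 to 5.32).

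The responses of strains differed by limma's test of the interaction in 31 named cases, each given as the difference of log2 fold changes. For starvation in daf-16 against N2 these were nhr-260 (1.28), nhr-207 (0.95), nhr-193 (0.89) and nhr-265 (-1.14). The nhr-265 difference was -0.82 and not called without replicate 2 of starved daf-16, and nhr-193 was not called without any of 9 arrays in turn. For starvation in daf-2 against N2 they were nhr-41 (0.70), nhr-114 (0.43), nhr-198 (0.43), nhr-155 (-2.44), nhr-265 (-2.25) and nhr-7 (-1.37); the positive ones each lost their call without some single arrays. Against daf-2;daf-16 they were nhr-235 (1.00), nhr-68 (0.70), nhr-114 (0.68), nhr-155 (-2.31), nhr-193 (-1.40) and nhr-21 (-1.34). There nhr-235 was not called without replicate 1 of untreated daf-2 (0.90), without replicates 2 or 3 of untreated daf-2;daf-16 (0.74 and 0.75) or with only the groups compared; nhr-68 was not called without replicate 3 of untreated daf-2 (0.58) or replicate 1 of starved daf-2 (0.56), nor nhr-21 without replicate 2 of untreated daf-2;daf-16 (-1.14).

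For UV in daf-16 against N2 they were nhr-144 (1.36), nhr-161 (0.76), nhr-17 (0.55) and nhr-155 (-1.07), of which nhr-161 alone was called whichever array was left out. For UV in daf-2 against N2 they were nhr-203 (0.90), nhr-179 (0.71), nhr-216 (0.71), nhr-265 (-2.66), nhr-155 (-1.25) and nhr-91 (-0.82). Without replicate 3 of N2 after UV, nhr-203 (0.70), nhr-179 (0.58), nhr-216 (0.59) and nhr-91 (-0.74) were not called, and nhr-179, nhr-216 and nhr-91 also lost their calls without some other single arrays. Against daf-2;daf-16 they were nhr-235 (1.56), nhr-3 (1.10), nhr-54 (0.83), nhr-265 (-1.95) and nhr-91 (-1.09), of which nhr-54 was not called without replicate 3 of untreated daf-2 (0.66) or replicates 2 or 3 of daf-2 after UV (0.78 and 0.75). The nhr-235 differences rest on untreated daf-2;daf-16, whose arrays read 4.88, 6.41 and 6.37. Comparisons against daf-2;daf-16 and against N2 share the daf-2 arrays.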

How the results depend on the processing

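Of 153 counts of called receptor genes under alternatives other than leaving out 1 array, 137 were within 1.5 times the count reported. The exceptions had no tested cause. With array weights, the counts were 98 for UV in daf-2, 91 for untreated daf-2 against N2, 57 against daf-2;daf-16 and 14 for untreated daf-16 against N2. For the starvation response they were 85 for daf-2 against N2 and 20 for daf-16 against N2, and for the UV response 34 for daf-2 against N2, 30 for daf-2 against daf-2;daf-16 and 16 for daf-16 against N2. With only the groups compared, they were 24 for UV in daf-16, 17 for UV in daf-2;daf-16, 10 for untreated daf-16 against N2, and 0 for daf-16 against N2 in the response to UV in limma (35 at an unadjusted p under 0.05). Without the 3 arrays that stand apart, the counts were 10, 11 and 12 for untreated daf-16 against N2 and for its starvation and UV responses against N2. Leaving out 1 array gave 29 to 52 for UV in daf-16, 18 to 31 for UV in daf-2;daf-16, 2 to 5 for untreated daf-16 against N2, 2 to 8 and 27 to 56 for the starvation responses of daf-16 and daf-2 against N2, and 1 to 18 and 3 to 18 for their UV responses against N2. For starvation in N2 it gave 149 to 158 calls.

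With the replicate number as a block, starvation in N2 gave 168 calls, UV in N2 59 and untreated daf-2 against N2 54, and no count moved by over 1.5 times; among named genes it changed 1 call, that of nhr-67 in starved N2 (adjusted p = 0.048). The arrays share only a number. With quantile normalization, 42.9% of the calls of untreated daf-16 against N2 were higher, against 66.7% as reported, and 60% against 75% for its UV response. Over 211 pairs of a named gene and a comparison, 3146 of 3290 values kept their call, or stayed uncalled, 95 lost their call by leaving out 1 array and 19 otherwise, 29 gained one, and 1 turned: nhr-76 after UV in N2, at 0.02 as reported and -0.37 (adjusted p = 0.011) with the mean of its probe sets. Among the 3146 are 35 that changed sign without being called either way. A count over 228 genes without shared probe sets, or 168 without dim ones, rests on fewer genes. Signals near the low end of the table limit what nhr-155, nhr-41 and nhr-207 can show.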
